A study of Mus musculus with 10 samples.

Results

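The genes described here encode the proteins of the cytosolic ribosome and were followed in mouse liver from 3 to 72 h after acetaminophen. They were chosen by name alone: every gene whose name in the array files began with Rpl or Rps and a digit, leaving out the Rps6k kinases, a rule that uses no measured value, although it was set with earlier results of these data known. This gave 96 of the 31473 gene names on the array, measured by 193 probes, and 94 of the 24001 genes that could be tested. The names covered 43 proteins of the large subunit and 29 of the small subunit, 15 names of pseudogenes, 8 paralogs of ribosomal proteins and Rps19bp1, which binds a ribosomal protein but is no part of the ribosome. Rpl39l, a paralog, and Rpl26-ps2, named as a pseudogene, were too dim to be tested.

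Control liver RNA was labelled with Cy3 and treated liver RNA with Cy5, 1 animal of each per array, on 10 arrays in all, with 2 arrays at each of 3, 8, 24, 48 and 72 h. Treated and control animals alike were female C57BL/6 mice, 8 weeks old, that had gone without food for 24 h. The treated group then received 350 mg/kg acetaminophen in phosphate buffer saline by injection into the peritoneum, and the control group received the saline. Arrays are named below by time and by the number of the treated mouse. Every array of mouse 3 was scanned on scan day 2, and every array of mouse 1 or 2 on scan day 1, on other slides. A difference between mouse 3 and the others thus cannot be told apart from one of scan day or slide. The dyes were never exchanged, so dye bias and treatment cannot be told apart at any single time, although a constant bias cancels in differences between times. Each value is the log2 of the treated over the control signal, for the brightest kept probe of each gene, after loess normalization within each array. They are relative to the other genes on the same array, so a change in total RNA cannot be seen. Errors are SE of the limma fit with n = 2 arrays per time and 1 spread per gene pooled over all times. The words "rose" or "fell" mean an adjusted p under 0.05 (limma, Benjamini-Hochberg over all 24001 genes). Calls and p-values of a gene's further probes came from a fit of all 29611 kept probes, adjusted over those probes. The liver markers Alb, Apoa1, Ttr, Cps1, Serpina1a, Fgb and Hnf4a were well above background in both channels of all 10 arrays.

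A ribosome is built from ribosomal RNA and a fixed set of proteins, each needed in about equal number, in a large and a small subunit. The messages for these proteins typically begin with a run of pyrimidines at the start of the transcript, through which growth signals passed on by the mTOR kinase control their translation, and the genes are expressed strongly in nearly every cell. In liver, making new ribosomes is a known part of the growth response after loss of tissue, and ribosomal proteins left free when assembly fails can bind Mdm2 and stabilise p53.

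The pyrimidine run is shown first, since it is a known feature of messages for ribosomal proteins. RefSeq promoters (GRCm38.p6) from 250 bases before to 50 after the annotated start were found for 60 of the 94 tested genes. The stretches below run from 30 bases before to 30 bases from the start, and capitals mark the run, defined as a C followed by at least 4 bases that are each C or T, read in the direction of transcription and beginning within 5 bases of the start. Where several C qualify, the capitals begin at the one nearest the annotated start, so C or T bases just before them are left in lower case. In Rps6, Rpl28 and Rps27, which are subunit genes, the capitals begin at the annotated start, and Rpl22l1 and Rps27l are paralogs.
Rps6, chr4:86857338-86857397, minus strand: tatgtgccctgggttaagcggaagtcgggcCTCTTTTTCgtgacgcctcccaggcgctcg
Rpl28, chr7:4792935-4792994, plus strand: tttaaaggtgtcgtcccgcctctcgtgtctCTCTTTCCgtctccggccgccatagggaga
Rps27, chr3:90213619-90213678, minus strand: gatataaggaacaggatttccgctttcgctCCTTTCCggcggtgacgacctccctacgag
Rpl22l1, chr3:28805478-28805537, plus strand: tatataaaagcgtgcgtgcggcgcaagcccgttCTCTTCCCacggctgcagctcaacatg
Rps27l, chr9:66946056-66946115, plus strand: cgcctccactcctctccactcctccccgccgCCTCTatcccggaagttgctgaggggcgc
The run was found in 25 of 53 subunit genes with a promoter (47.2%), in 2 of 6 paralogs and in 21.2% of the 27025 genes of the promoter table. Annotated starts can be off by several bases, so a run at the true start can lie outside this window. The letters CCGGAAG, the core bound by ETS family factors such as Gabpa, were searched on both strands of the whole window and found in 22 of the 53 subunit genes (41.5%), against 9.93% of all genes.

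At 48 h most ribosomal protein genes were higher in treated than in control livers. Of the 94 genes, 72 rose and 0 fell, against 17.9% of all genes tested that rose and 13.5% that fell at that time. The median log2 ratio was 0.90, a 1.87-fold difference, while the median of all genes lay between -0.01 and 0.00 on every array. Of the 72, 37 rose at least 2-fold, against 5.10% of all genes, and the smallest and largest rises were 1.29-fold and 4.29-fold. On both 48 h arrays 88 of the 94 genes were above 0 (all genes: 37.0%), and 4 were below 0 on both (all genes: 39.7%): Rpl10a-ps2, Rpl10l, Rpl3l and Rps27l. The array medians were 0.81 for mouse 1 and 1.01 for mouse 3. In 58 genes both 48 h arrays lay above all 8 other arrays, as in 13.4% of all genes, in 1 gene, Rpl10a-ps2, both lay below them (all genes: 9.03%), and 48 h was the highest of the 5 times in 80 genes (all genes: 29.1%). Leaving out the 48 h array of mouse 3 left 44 of the 72 calls, and centring each array on its median in place of loess left 40. All 72 genes stayed above 0 under each alternative except a stricter filter, which left 71 of them in the fit, all 71 above 0. All 72 were above 0 on both 48 h arrays, so leaving out an array could not bring any of them below 0. Under all 25 settings, the reported one included, 31 genes rose.

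**Figure D1:**
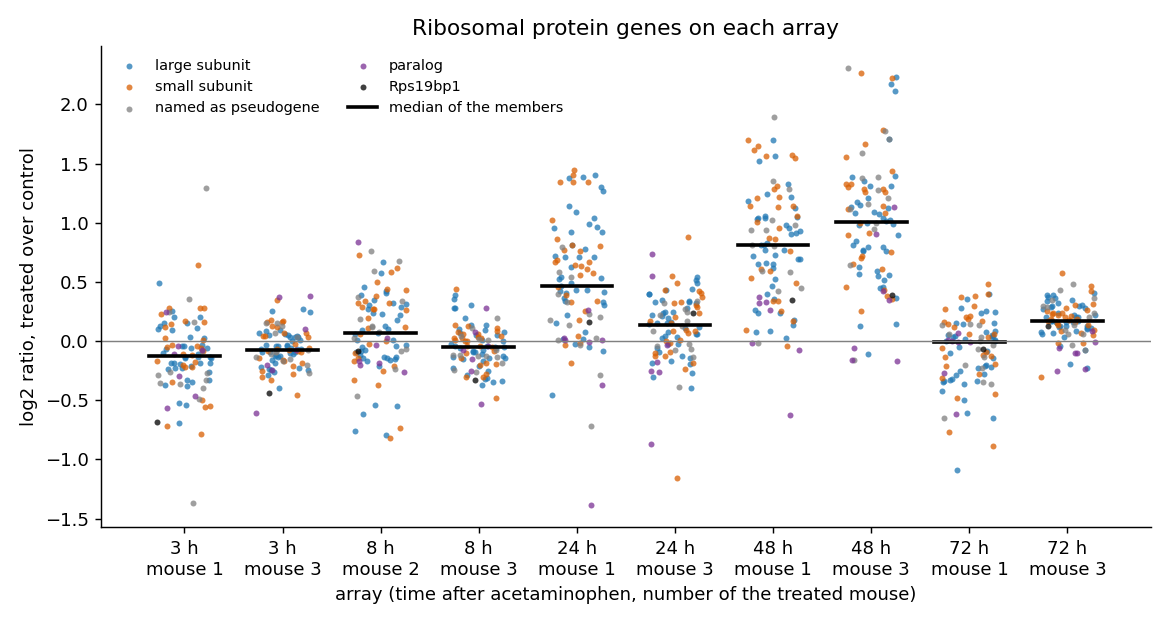
Log2 ratio of treated over control (vertical axis) of the 94 ribosomal protein genes on each of the 10 arrays (horizontal axis), 1 point per gene coloured by group, with a bar at the median of each array. The medians are 0.81 and 1.01 at 48 h and between -0.12 and 0.17 on the 6 arrays of 3, 8 and 72 h. At 24 h they are 0.46 and 0.14, and the 24 h median is below 0 when arrays are centred on their median in place of loess.

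Most genes of each subunit rose. Of 43 large subunit genes 33 rose, with a median log2 ratio of 0.87, and of 29 small subunit genes 23 rose, with a median of 1.05. No test compared the subunits with each other. All 43 large and all 29 small subunit genes had a mean above 0 at 48 h, from 0.06 for Rpl28 to 1.98 for Rps19.

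The probe sequences of the subunit genes with the largest rises, and of Rpl5, are given here because every value rests on what these 60 bases bind. Coordinates are mm9, as in the files, and their place relative to exons and UTRs was not analysed here. None shares 20 or more bases in a row with a probe of another gene name, so no letter is in capitals.
Rps19, chr7:25670166-25670225, plus strand: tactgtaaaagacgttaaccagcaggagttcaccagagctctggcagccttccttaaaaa
Rps27a, chr11:29445914-29445973, minus strand: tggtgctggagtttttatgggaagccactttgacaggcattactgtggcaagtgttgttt
Rpl13, chr8:125627816-125628964, plus strand, across an intron: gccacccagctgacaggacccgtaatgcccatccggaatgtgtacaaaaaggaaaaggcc
Rpl5, chr5:108333834-108333892, plus strand: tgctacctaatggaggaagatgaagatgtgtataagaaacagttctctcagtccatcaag

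Rps19, a small subunit protein whose human counterpart is mutated in Diamond-Blackfan anaemia, was at -0.78 and -0.46 on the 3 h arrays, 0.27 and 0.11 at 8 h, 0.46 and 0.15 at 24 h, 1.70 and 2.26 at 48 h and -0.21 and 0.17 at 72 h. Both 48 h arrays stood far above the other 8. The 48 h log2 ratio of 1.98 ± 0.16, a 3.95-fold difference, had an adjusted p of 0.000165 (limma). Rps27a encodes a fusion of ubiquitin with a small subunit protein. It was at -0.16 and -0.03 at 3 h, 0.32 and -0.00 at 8 h, 1.34 and 0.33 at 24 h, 1.62 and 2.22 at 48 h and -0.31 and 0.18 at 72 h. Its 24 h array of mouse 1 came close to the 48 h arrays, while that of mouse 3 was close to the higher 8 h array. The 48 h value was 1.92 ± 0.24 (limma adjusted p = 0.000993).

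Rpl13, of the large subunit, showed the same split at 24 h. It was at -0.18 and -0.12 at 3 h, 0.24 and -0.05 at 8 h, 1.38 and 0.52 at 24 h, 1.70 and 2.11 at 48 h and -0.08 and 0.12 at 72 h. Both its 24 h arrays were above the 6 arrays of 3, 8 and 72 h and below the 48 h arrays, and the 48 h value was 1.90 ± 0.19 (limma adjusted p = 0.000392). Its other 3 probes, of which 2 have coordinates on chromosome 4 and not 8, gave between 1.39 and 1.55 at 48 h. Rps4x, an X-linked small subunit gene, had the smallest p of the 94 in the test over all times. It was at 0.28 and 0.12 at 3 h, 0.29 and 0.06 at 8 h, 0.63 and 0.40 at 24 h, 1.65 and 1.79 at 48 h and 0.38 and 0.09 at 72 h. Its 48 h arrays stood clear of the rest, at 1.72 ± 0.11 (limma adjusted p = 7.02e-05). Rpl18 was closest to the median of the 94 genes, at 0.65 and 1.15 on the 48 h arrays, or 0.90 ± 0.17.

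Rpl5 and Rpl11 enter the large subunit together with 5S ribosomal RNA, and both can bind Mdm2 when free. Rpl5 was at -0.54 and -0.04 at 3 h, 0.32 and 0.28 at 8 h, -0.45 and 0.34 at 24 h, 1.18 and 2.17 at 48 h and 0.03 and 0.08 at 72 h, so that only the 48 h arrays passed 1. It rose to 1.68 ± 0.25 at 48 h (limma adjusted p = 0.00204). Rpl11 was at 0.53 and 0.55 on the 48 h arrays, or 0.54 ± 0.18, and missed the threshold (limma adjusted p = 0.0518), although 2 of its 3 probes passed. The difference between both genes was not tested. Rps6, the small subunit protein phosphorylated by the S6 kinases, was at 0.86 and 1.30 at 48 h and rose by 1.08 ± 0.23 (limma adjusted p = 0.00863).

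Of 14 pseudogene names tested, 12 rose at 48 h, with a median of 1.09, and 0 fell (all genes: 17.9% and 13.5%). The largest rise of all 94 genes was that of the probe named Rps24-ps2, which was at 0.25 and 0.12 at 3 h, 0.59 and 0.01 at 8 h, 0.40 and -0.13 at 24 h, 1.89 and 2.31 at 48 h and -0.03 on both 72 h arrays. The 48 h arrays were far above the rest, at 2.10 ± 0.17 or 4.29-fold (limma adjusted p = 0.000172), against 1.07 ± 0.11 for Rps24 itself. Transcripts of a parent gene and of its processed copies are close in sequence, and whether such a probe binds the parent's message was not tested. In the probes below, capitals mark the longest stretch that a probe shares with a probe of another gene name on the array.
Rps24-ps2, chr3:3792122-3792181, plus strand: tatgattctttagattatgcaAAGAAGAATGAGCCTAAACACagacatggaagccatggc
Rpl12, next brightest probe, chr2:32818526-32818585, plus strand: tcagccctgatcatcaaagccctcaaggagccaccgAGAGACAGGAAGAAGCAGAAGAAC
Rpl12-ps1, chr1:37014957-37015016, minus strand: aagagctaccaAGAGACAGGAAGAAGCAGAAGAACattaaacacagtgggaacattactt
The Rpl12 and Rpl12-ps1 probes shared 24 bases and gave log2 ratios of 1.43 and 1.53 at 48 h. The stretch of 21 bases in the Rps24-ps2 probe was shared with a probe named Gm4832. Of the 94 probes that represent the genes, 45 shared no stretch of 20 bases, 17 shared 20 to 29 and 32 shared 30 or more. Rises at 48 h were counted in 35 of the 45, 13 of the 17 and 24 of the 32, with medians of 0.93, 0.78 and 0.90. The probes of the subunit genes Rps27 and Rps29 lay on another chromosome than the RefSeq gene of that name.

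Paralogs are relatives of ribosomal proteins encoded by genes of their own, and no test compared them with the subunit genes. Of 7 tested, 3 rose at 48 h and 0 fell (all genes: 17.9% and 13.5%), with a median of 0.36. Rps27l, a close relative of Rps27 and a known target of p53, was at -0.57 and -0.25 at 3 h, -0.17 and -0.25 at 8 h, -1.39 and -0.87 at 24 h, -0.62 and -0.17 at 48 h and -0.62 and -0.06 at 72 h. All 10 arrays were below 0, and the 2 lowest were those of 24 h. It was the only one of the 94 genes to fall at 24 h, to -1.13 ± 0.18 (limma adjusted p = 0.00583). At 48 h it was at -0.40 ± 0.18 (limma adjusted p = 0.136), and the brightest Rps27 probe at 0.16 ± 0.15 (limma adjusted p = 0.491), while 2 of the 4 Rps27 probes rose.

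Rpl22l1, whose message is known to be held down by its relative Rpl22, was at 0.25 and 0.37 at 3 h, 0.83 and 0.28 at 8 h, -0.37 and -0.26 at 24 h, 0.33 and 0.90 at 48 h and 0.07 and 0.09 at 72 h. It was above 0 at 3, 8, 48 and 72 h and below 0 on both 24 h arrays, and neither it nor Rpl22 passed at 24 h. The brightest Rpl22 probe was at 0.72 and 0.15 then, and its other probe had a mean of -0.59 ± 0.19. At 48 h Rpl22l1 rose to 0.62 ± 0.16 and Rpl22 to 0.63 ± 0.17 (limma adjusted p = 0.0199 and 0.0247). The other rises were of Rpl36al, at 0.36 ± 0.08 beside 1.01 ± 0.14 for Rpl36a, and of Rpl7l1, at 0.69 ± 0.20 beside 0.84 ± 0.11 for Rpl7. The Rpl7l1 probe was dim, well above background in the treated channel on 8 of 10 arrays. Rps4l was at 0.37 ± 0.18 and did not pass. Rpl3l and Rpl10l, known mainly from muscle and testis, were at -0.04 ± 0.10 and -0.12 ± 0.06, on probes that were not well above background in both channels of all arrays. Rps19bp1, which is no ribosomal protein, was at -0.68 and -0.44 at 3 h and 0.35 and 0.39 at 48 h. It fell at 3 h, to -0.56 ± 0.09, and rose at 48 h, to 0.37 ± 0.09 (limma adjusted p = 0.0141 and 0.0198).

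**Figure D2:**
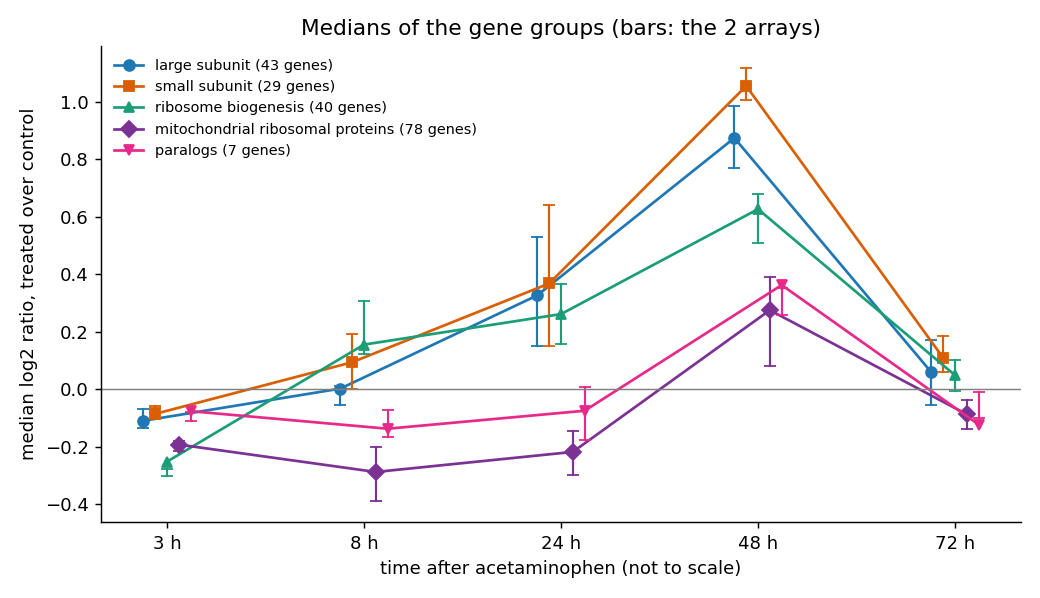
Median log2 ratio of treated over control (vertical axis) of 5 gene groups at 3, 8, 24, 48 and 72 h (horizontal axis, not to scale), with a bar between the medians of the 2 arrays. At 48 h the small and large subunit medians are 1.05 and 0.87, above 0.63 for ribosome biogenesis, 0.36 for the paralogs and 0.28 for the mitochondrial ribosomal proteins, whose medians at 3, 8 and 24 h are below 0.

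At 24 h fewer members passed than at 48 h, and the 2 arrays differed. At that time 16 of the 94 genes rose, against 3.79% of all genes, and 1 fell, against 7.09%, so 17 changed in all, against 10.9%. The 16 were 8 genes of each subunit, and 15 of them also rose at 48 h. The array medians were 0.46 for mouse 1 and 0.14 for mouse 3, and 79 of 94 genes were higher on the array of mouse 1. The 2 arrays were also on different slides and scan days, which cannot be told apart from the treated mouse. Each array also carries its own control liver, and the channels are given separately below. Without the 24 h array of mouse 1, 2 rises and 1 fall were left. Without that of mouse 3 there were 28 rises and 1 fall. With arrays centred on their median in place of loess, the members' median at 24 h was -0.44 and none passed. On that scale the other genes in the brightest twentieth of probes had a median of -0.68, and all genes of -0.07.

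The largest rises at 24 h were of small subunit genes. Rps14 was at 0.64 and 0.16 at 3 h, 0.61 and 0.44 at 8 h, 1.34 and 0.88 at 24 h, 1.55 and 1.56 at 48 h and 0.48 and 0.30 at 72 h. All 10 arrays were above 0, those of 24 and 48 h above the other 6, and the 24 h value was 1.11 ± 0.14 (limma adjusted p = 0.00199). It was also the only member to rise at 8 h, to 0.53 ± 0.14 (limma adjusted p = 0.0476), and under median centring that value was -0.21. Rps20 was at 1.40 and 0.55 at 24 h, or 0.97 ± 0.17, and Rps12 at 1.45 and 0.49, or 0.97 ± 0.20 (limma adjusted p = 0.00857 and 0.0204). In both, mouse 1 alone was above 1. Rpl13 was at 0.95 ± 0.19 (limma adjusted p = 0.0172).

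Rpl14, of the large subunit, rose at 24 h and did not pass at 48 h. It was at -0.04 and -0.06 at 3 h, -0.76 and -0.25 at 8 h, 1.04 and 0.54 at 24 h, 0.09 and 0.55 at 48 h and 0.08 and 0.29 at 72 h. Its 8 h arrays were the lowest, and it was higher at 24 than at 8 h by 1.30 ± 0.24 (limma adjusted p = 0.0192). Its difference between 24 and 48 h did not pass, and its dimmest probe rose at 48 h. Rpl13a, at 1.30 and 0.49 at 24 h and 1.03 and 0.82 at 48 h, was higher at 24 than at 8 h by 1.14 ± 0.25 (limma adjusted p = 0.0369). These were the only 2 members that differed between 8 and 24 h, against 2.47% of all genes that were higher at 24 h and 3.82% that were lower. Without the 24 h array of mouse 3 the count was 13, without an array of 3 or 72 h it was 1 in each case, without that of mouse 1 at 24 h it was 1, which was lower at 24 h, and without that of mouse 2 at 8 h it was 0.

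Before 24 h few members changed. Below 0 on both arrays were 54 of the 94 genes at 3 h (all genes: 35.6%), 31 at 8 h (39.3%) and, for comparison, 9 at 24 h (36.4%). At 3 h 0 rose and 2 fell, Rps19bp1 and Rps18, against 3.36% of all genes that rose, 4.08% that fell and 7.44% that changed either way. Rps18 was at -0.72 and -0.33, or -0.52 ± 0.12 (limma adjusted p = 0.0444). At 8 h Rps14 rose and Rps15 fell, against 5.34% of all genes that rose, 7.58% that fell and 12.9% that changed either way. Rps15 was at -0.82 and -0.30, or -0.56 ± 0.15 (limma adjusted p = 0.0471). Between 3 and 8 h 0 of the 94 differed by limma at an adjusted p under 0.05, and 6 had an unadjusted p under 0.05 (all genes: 16.7%). The 2 calls at each time did not hold throughout. At 3 h the count was 0 without mouse 1 of that time, 1 without any single array of 8, 24 or 72 h, and 3 without mouse 3 of that time or either 48 h array. At 8 h it was 0 without mouse 2 of that time or either 72 h array, 1 without either 3 h array, and 4 without mouse 3 of that time. Between 3 and 8 h it was 1 without mouse 3 of 3 h. With median centring 1 rose and 10 fell at 3 h, where all genes had a median of -0.24. Under that setting 6003 of the 24001 genes tested were called at 3 h in either direction, against 11 of the 94.

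From 48 to 72 h the rise was lost. At 72 h 0 of the 94 genes passed (limma), as for all genes, and 7 had an unadjusted p under 0.05 (all genes: 3.19%), 5 of them higher (1.36%) and 2 lower (1.83%). The median was 0.06, at -0.01 for mouse 1 and 0.17 for mouse 3. Of the 94, 45 were lower at 72 than at 48 h and 0 were higher, against 10% of all genes that were lower and 6.56% that were higher. The largest differences were those of Rps24-ps2, at -2.13 ± 0.24, Rps19, at -2.003 ± 0.23, and Rps27a, at -1.99 ± 0.34 (limma adjusted p = 0.00202, 0.00198 and 0.00842). The count was 15 without the 48 h array of mouse 3 and 13 without the 72 h array of mouse 1. With median centring it was 0. A constant dye effect cancels in this difference and in the next.

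From 24 to 48 h 25 of the 94 genes were higher at the later time and 0 were lower, against 7.80% of all genes that were higher and 2.65% that were lower. Rps24-ps2 differed by 1.97 ± 0.24, Rpl5 by 1.73 ± 0.36 and Rps19 by 1.68 ± 0.23 (limma adjusted p = 0.00534, 0.023 and 0.00648). The count was 13 without either array of 3 h, 7 without the 24 h array of mouse 3 and 5 without the 48 h array of mouse 3. It was 1 with median centring, 11 with the software's ratios or the value table and 12 with a normexp offset of 0. Over all 5 times 48 of the 94 genes differed in limma's moderated F test, against 23.3% of all genes. The smallest p-values were of Rps4x, Rps19, Rps24-ps2, Rps13 and Rpl21-ps1 (limma adjusted p = 0.00205, 0.00228, 0.00405, 0.00446 and 0.00515). That count was 21 without the 3 h array of mouse 1, 31 without that of mouse 3, 30 without the 8 h array of mouse 2 and 15 without the 48 h array of mouse 3. With median centring it was 3.

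Each channel was then examined on its own, since a ratio can move through the control as well as the treated liver. Relative to the mean of the same channel at 3 h, the median of the 94 genes in the treated livers was 0.80 and 0.88 at 48 h, and in the control livers -0.11 and -0.18. At 24 h the treated livers were alike, at 0.61 and 0.54, while the control livers were at 0.06 for the array of mouse 1 and 0.29 for that of mouse 3. The treated livers thus differed less from each other at 24 h than the control livers did. In the control livers 0 of the 94 genes differed over time (limma F test), against 3.59% of all genes, and 24 had an unadjusted p under 0.05 (all genes: 21.2%). The smallest unadjusted p-values there were of Rps19, Rpl34, Rps3a1, Rpl7a-ps5 and Rps2, from 0.00182 to 0.00336, none of them past the adjustment. The count was 13 with the slide, 10 with the replicate number and 7 with the scan day as a block. Of the 24001 genes tested, 1888, 2214 and 1757 differed under these settings. Stability of the 94 genes in the controls was thus not shown.

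**Figure D3:**
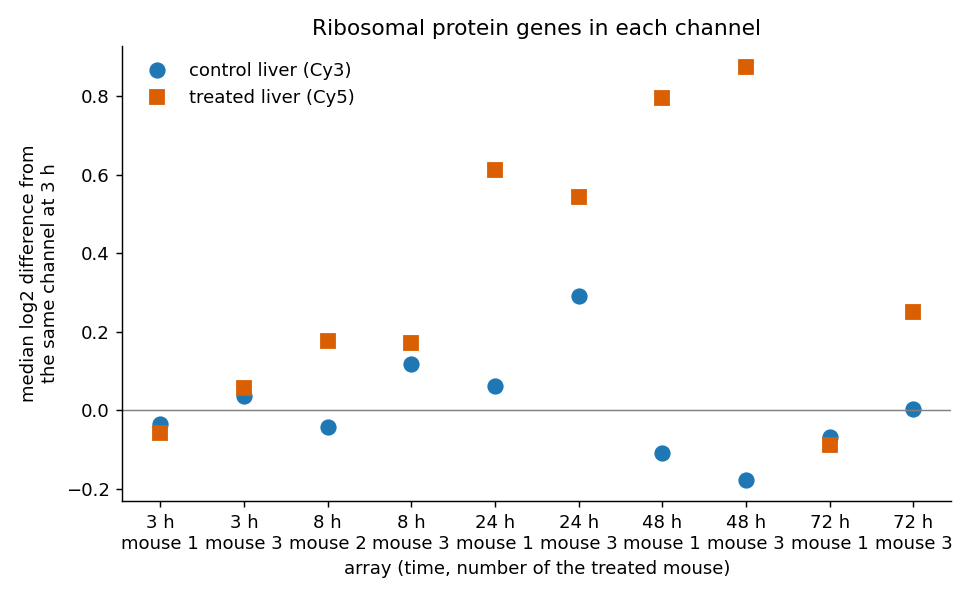
Median over the 94 genes of the log2 difference from the same channel at 3 h (vertical axis) in the control liver (circles) and the treated liver (squares) of each of the 10 arrays (horizontal axis). At 48 h the treated livers are at 0.80 and 0.88 and the controls at -0.11 and -0.18. At 24 h the treated livers are at 0.61 and 0.54 and the controls at 0.06 and 0.29.

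These genes are among the brightest on the array, so their values were set against other bright probes. The median brightness of the 94 probes was 13.4 on the log2 scale, against 7.87 for all genes, and 71 lay in the brightest twentieth of probes. There 55 of the 71 rose at 48 h, while the other genes of that twentieth had a median log2 ratio of -0.03 and 30.6% of them rose. In the next twentieth 14 of 15 members rose, against 32.0% of other genes. Setting the median of the other genes of like brightness to 0 on each array left all 72 rises in place. At 24 h members in the brightest twentieth had a median of 0.34 and the other genes there of 0.09. Across the 94 genes, which share arrays and are not independent, brightness and the log2 ratio had a Pearson r of 0.44 and a Spearman rho of 0.59 at 24 h, and of 0.22 and 0.03 at 48 h.

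**Figure D4:**
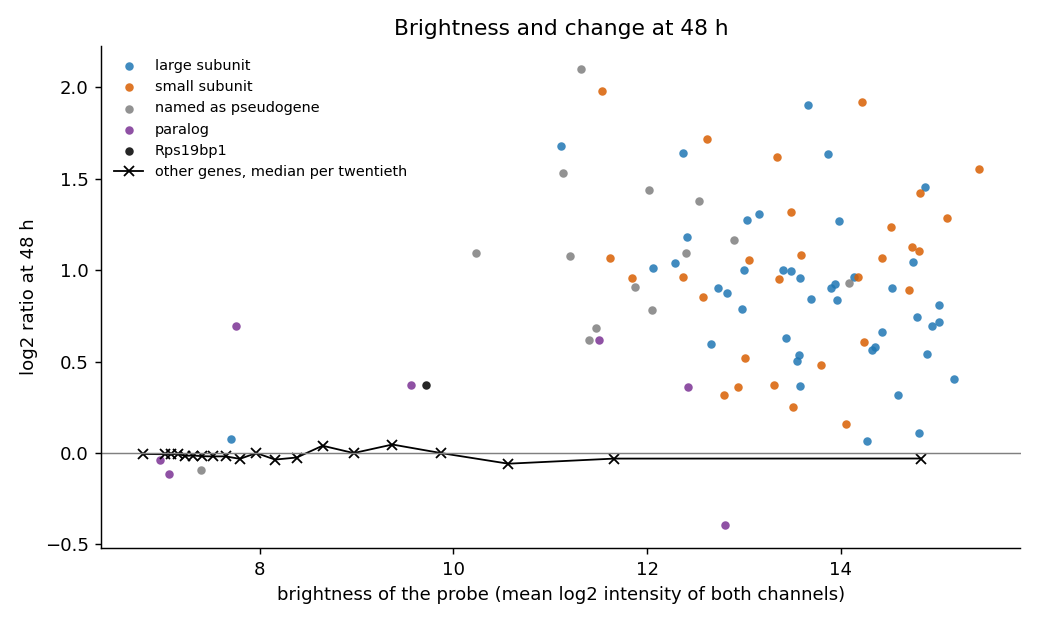
Log2 ratio at 48 h (vertical axis) against the brightness of the probe (horizontal axis, mean log2 intensity of both channels) for the 94 genes, coloured by group, with crosses for the median of all other genes in each of 20 equal bins of brightness. The crosses stay near 0, at -0.03 in the brightest bin, and 4 of the 94 points lie below 0.

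How much a gene rose also depended on which of its probes was read. Calls and p-values of probes given here, the brightest included, come from the fit of single probes, adjusted over all 29611 kept probes. Of the 188 kept probes of these genes 141 rose at 48 h and 0 fell. Among 53 genes with more than 1 kept probe, all probes rose in 25, none in 6 and only some in 22, and none had probes called in opposite directions. The spread between the probes of a gene had a median of 0.51. Of the 22 genes that did not pass at 48 h, 16 belonged to the subunits, and 10 of the 22 had another probe that rose. The probe pairs of Rps15 and Rps2, small subunit genes, are printed because 1 probe of each passed and the other did not, and capitals again mark stretches shared with a probe of another name.
Rps15, brightest, chr10:79756716-79756775, plus strand: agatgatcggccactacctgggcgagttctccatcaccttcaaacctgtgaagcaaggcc
Rps15, next, chr10:79755554-79756394, plus strand, across an intron: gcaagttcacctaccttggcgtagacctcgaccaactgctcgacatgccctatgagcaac
Rps2, brightest, chr17:42864841-42864900, plus strand: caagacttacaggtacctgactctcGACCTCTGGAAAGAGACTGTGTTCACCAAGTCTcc
Rps2, next, chr17:24857583-24857642, plus strand: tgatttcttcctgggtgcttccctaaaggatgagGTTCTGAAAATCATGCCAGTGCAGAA
The brightest Rps15 probe was at 0.31 ± 0.15 and the next at 1.53 ± 0.15 (limma adjusted p = 0.151 and 0.000333). The brightest Rps2 probe, whose coordinates lie apart from those of the next one on the same chromosome, was at 0.48 ± 0.24 and the next at 1.62 ± 0.22 (limma adjusted p = 0.167 and 0.00143). In the same way the Rps18 probes were at 0.36 ± 0.12 and 1.32 ± 0.15, and the Rpl9 probes at 0.57 ± 0.17 and 1.97 ± 0.21. Rpl22 went the other way, with a dimmer probe at -0.46 ± 0.19. Across the 53 genes the next brightest probe was the higher in 27, so neither rank was higher throughout, and the medians were 0.87 and 0.96.

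**Figure D5:**
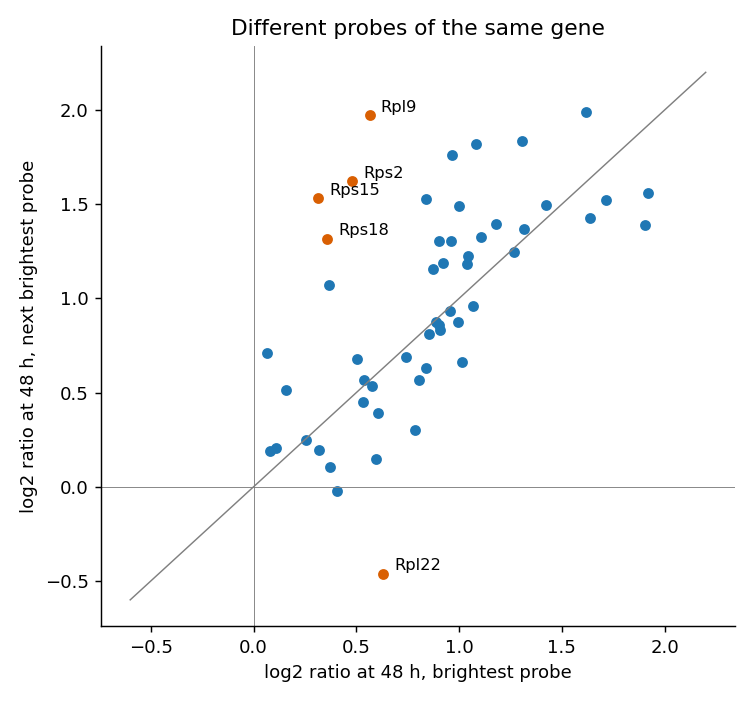
Log2 ratio at 48 h of the next brightest probe (vertical axis) against that of the brightest probe (horizontal axis) for the 53 genes with more than 1 kept probe, with the line of equal values. Rps15, Rps2, Rps18, Rpl9 and Rpl22 are named as genes far from the line, and in 27 of the 53 the next brightest probe is the higher.

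Among subunit genes with a promoter, those with the pyrimidine run rose in 18 of 25 cases, with a median of 0.95, and those without it in 23 of 28, with a median of 0.93. Of those with CCGGAAG, 17 of 22 rose, with a median of 0.96, and of those without it 24 of 31, with a median of 0.90. These are descriptions of the letters in the window. Rps27 and Rpl28, whose run is printed above, were at 0.16 ± 0.15 and 0.06 ± 0.16 at 48 h and did not pass, but this depended on the probe: 2 of the 4 Rps27 probes rose, to 0.51 ± 0.12 and 0.82 ± 0.15, and the other Rpl28 probe was at 0.71 ± 0.23 (limma adjusted p = 0.0531). All 3 Rps6 probes rose.

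Other genes of the translation machinery were taken from lists chosen by function. Of the 6 ribosomal protein genes with other names, 4 rose at 48 h and 0 fell, against 17.9% and 13.5% of all genes. Rplp1, of the ribosomal stalk, was at 1.49 and 1.32, or 1.41 ± 0.13. Rpsa was the largest rise of these at 24 h, at 1.31 and 0.70, or 1.00 ± 0.17. Another 18 translation genes were listed as having a pyrimidine run, which was not searched for in them here. Of these, 15 rose at 48 h and 0 fell (all genes: 17.9% and 13.5%), with a median of 0.76. The largest rises were of Hnrnpa1, an RNA-binding protein, at 1.87 and 2.80 at 48 h, and of Npm1, a nucleolar chaperone, at 1.56 and 0.97 at 24 h.

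Of 40 ribosome biogenesis genes 28 rose at 48 h and 0 fell (all genes: 17.9% and 13.5%), with a median of 0.63. Of the 40, 8 fell and 1 rose at 3 h (all genes: 4.08% and 3.36%), 14 rose and 1 fell at 8 h (5.34% and 7.58%), and 9 rose and 1 fell at 24 h (3.79% and 7.09%). Their course was not tested against that of the ribosomal proteins. Gar1, a component of the particles that modify ribosomal RNA, was at -0.62 and -0.47 at 3 h, 0.99 and 0.65 at 8 h, 1.43 and 1.21 at 24 h, 1.34 and 1.47 at 48 h and -0.01 and 0.25 at 72 h. It was thus about as high at 24 as at 48 h, at 1.32 ± 0.11 and 1.41 ± 0.11. Nop56 was highest at 24 h, at 1.44 ± 0.13, and Nop10 fell at 3, 8 and 24 h, to -0.55 ± 0.11 at the last, and rose at 48 h to 0.59 ± 0.11. The proteins of the mitochondrial ribosome, a separate family of 78 genes, were mixed. At 48 h 29 rose and 7 fell (all genes: 17.9% and 13.5%), with a median of 0.28. Falls numbered 15, 25 and 13 at 3, 8 and 24 h (all genes: 4.08%, 7.58% and 7.09%). Of 54 initiation factor genes 34 rose and 4 fell at 48 h (all genes: 17.9% and 13.5%).

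Of 17 genes known to regulate ribosome production, 4 rose and 3 fell at 48 h, beside 17.9% and 13.5% of all genes. At 8 h 5 rose, all at least 2-fold, and 2 fell (all genes: 5.34% and 7.58%). At 3 h 2 rose and 0 fell (3.36% and 4.08%), and at 24 h 1 rose and 2 fell (3.79% and 7.09%). Whether these changes bear on the ribosomal protein genes was not tested. Eif4ebp1, a repressor of cap-dependent translation acted on by mTOR, was at 1.36 and 1.76 at 8 h and 1.30 and 1.32 at 48 h, and rose at both times. Tsc1, an inhibitor of mTOR signalling, was at -0.76 and -0.75 at 48 h, and fell at 8, 24 and 48 h. Eif4ebp2 fell at the same times, to -0.48 ± 0.09 at 24 h. Mdm2, which marks p53 for breakdown, rose at 8, 24 and 48 h, to 2.10 ± 0.19, 0.99 ± 0.19 and 0.77 ± 0.19.

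Some markers of liver cell types changed at the same times. In a whole-liver sample, fewer cells of a type and less RNA per cell cannot be told apart. Of 7 hepatocyte markers 3 fell at 24 h and 4 at 48 h (all genes: 7.09% and 13.5%), and none rose then. Cps1, of the urea cycle, was at -2.32 and -2.57 at 24 h, and Serpina1a, a secreted protease inhibitor, at -1.12 and -2.05 at 48 h. Of 4 neutrophil markers 3 rose at both times (all genes: 3.79% and 17.9%). They were led by S100a9, at 4.32 and 1.75 at 24 h and 3.63 and 3.69 at 48 h. The 1 neutrophil marker that did not rise at 48 h was at -0.45, below 0 on both arrays. At 48 h 2 of 7 macrophage markers (Cd68 and Lyz2, the latter at 0.60 ± 0.14), 1 of 5 endothelial markers (Cdh5, at 1.35 ± 0.10), 1 of 5 stellate cell markers (Pdgfrb, at 0.54 ± 0.17) and 0 of 6 lymphocyte markers rose, beside 17.9% of all genes. The endothelial markers had a median of -0.11, with Clec4g lowest at -0.95 ± 0.32, which did not pass. Of 3 markers of dividing cells 0 rose or fell then. The median of the neutrophil markers was 1.24 at 24 h and 2.04 at 48 h, and that of the hepatocyte markers -0.43 and -0.54. The part of these cells in the ribosomal protein values was not tested.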

How the data were processed

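Each of 10 arrays compared liver RNA of a treated mouse (Cy5) with that of a control mouse (Cy3), per the labels. The authors' scanner output, made with Agilent Feature Extraction 10.7.3.1 per the file headers, holds the spot intensity of each channel and a log10 ratio of red over green. The deposited value table is a score equal to 1.44 times that log10 ratio (r = 1 on each array), and its log base is not stated. From the intensities a log2 ratio was computed with limma 3.58.1 in R 4.3.3: normexp with offset 50, loess within arrays with control and outlier spots at weight 0, 2718 outlier spots left out, spots of a probe averaged. Kept were 29611 of 39429 probes, those whose signal in 1 channel was well above background on the pair of arrays of some time point. The brightest kept probe stood for its gene. One mean per time was fitted with eBayes (5 residual degrees of freedom), with differences between neighbouring times and an F test over times, and the fit was tested on simulated data. Control livers were compared after loess and Aquantile. Probes were named by accession through RefSeq (GRCm38.p6) for 26581 probes and otherwise as in the files, whose coordinates are mm9.

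The members and lists were chosen with earlier results of these data known. Genes described are those with the largest changes per test, those nearest the median, the paralogs with their parents, and the largest change of each list, and further genes were picked for their role or after their values were seen. Control and treated mice are numbered separately in the labels, and the same numbers recur at different times. The p-values rest on a spread per gene pooled over all times, with 2 arrays per time. The number of arrays limits the precision. Value columns without a sample numbered 0. Alternatives covered background, normalization, filters, probe choice, blocks and each array left out. Some items are not reported here.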

Additional observations from a re-analysis of the deposited data

Results flagged for a closer look

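Differences between times in the treated over control ratio passed their own test for these results. From 8 to 24 h 2 members differed, Rpl14 by 1.30 and Rpl13a by 1.14. From 24 to 48 h 25 members differed, Rps24-ps2 by 1.97, Rpl5 by 1.73 and Rps19 by 1.68. From 48 to 72 h 45 members differed, Rps24-ps2 by -2.13, Rps19 by -2.003 and Rps27a by -1.99. Over all 5 times 48 members differed.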

How the results depend on the processing

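Over the alternatives, the main counts and medians kept their value, within 1.5 times or the spread of the arrays, in 294 cases and moved in 87. The median at a time cannot change when an array of another time is left out or an intensity trend is used. Some of the 294 cases were therefore fixed in advance. Median centring in place of loess moved the members' median at 3, 8, 24 and 48 h to -1.28, -0.71, -0.44 and 1.67. The other genes in the brightest twentieth of probes were then at -1.13, -0.74, -0.68 and 0.76. Median centring also moved the counts called to 11, 0, 0 and 40, where 6003, 2530, 754 and 2900 of all genes were called. It moved the counts between times to 0 (8 to 24 h), 1 (24 to 48 h) and 0 (48 to 72 h). The F test count moved to 3, and Rps14 at 8 h was reversed, to -0.21. Without background correction 1 member was called at 3 h, 31 at 24 h and 8 between 8 and 24 h. With offset 0 the 3 h median was -0.16, 1 was called at 3 h, 0 at 8 h and 12 between 24 and 48 h. Centring by brightness gave -0.16 at 3 h, 4 calls at 8 h and 5 between 8 and 24 h. The software's ratios and the value table each gave 0, 0 and 7 calls at 3, 8 and 24 h, and 1 and 11 between 8 and 24 and 24 and 48 h. With no filter 1 was called at 3 h, 0 at 8 h and 1 between 8 and 24 h. The stricter filter gave 27 at 24 h, 8 between 8 and 24 h and 4 in control livers. The mean of probes gave 1 at 3 h, 1 at 8 h and 3 in control livers, an intensity trend 1 at 8 h, and loess without the members 26 at 24 h and 2 in control livers. The cause of these moves was not tested.

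With the scan day as a block 1 was called at 3 h, 1 at 8 h and 7 in control livers, and with the slide 13 in control livers. The replicate block gave 10 in control livers and kept 72 of the 72 rises at 48 h. In control livers 1757, 1888 and 2214 of all genes were called with the scan day, slide and replicate block. Deviations from the time means correlated at -0.12 to 0.29 over the 10 pairs of arrays of treated mouse 3 and at -0.04 to 0.29 over the 6 pairs of mouse 1, so the numbers were not taken to pair the samples.

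Leaving out single arrays gave medians at 3, 8, 24, 48 and 72 h of -0.12 to -0.07, -0.05 to 0.07, 0.14 to 0.46, 0.81 to 1.01 and -0.01 to 0.17. Counts called ran from 0 to 3, 0 to 4, 3 to 29, 44 to 74 and 0 to 0. Between times they ran from 0 to 1 (3 to 8 h), 0 to 13 (8 to 24 h), 5 to 29 (24 to 48 h) and 13 to 54 (48 to 72 h), in the F test from 15 to 55 and in control livers from 0 to 4. Leaving out saturated spots changed nothing to run, since 0 spots were saturated.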
